A study of Mus musculus with 2 samples.

Results

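The transcripts described are the 200 brightest noncoding RNAs of mouse skeletal muscle fibres on a gene expression microarray, taken over a pool of fast fibres and a pool of slow fibres. They were chosen from probes that carry a RefSeq noncoding (NR) accession. Of 2412 such accessions on the array, 631 had a probe well above background on both arrays, and the 200 with the highest mean log2 signal over both arrays were kept. The same signal defines the levels below, so the brightness of a member describes the choice and is no result, whereas the difference between the pools took no part in it. At the edge of the choice, Iqsec3, 9330159M07Rik and Snhg10 were just inside with mean log2 signals of 0.33, 0.32 and 0.28, and A330069E16Rik, 2900076A07Rik and Gm20735 were just outside with 0.27, 0.26 and 0.25. By accession, 189 members matched 188 genes in the gene table, of which A930005H10Rik holds 2 accessions, and 11 members matched none and are called by their accession. The table types 119 of the members as long noncoding RNAs, 47 as transcribed pseudogenes, 11 as transcripts of protein-coding genes, 6 as small nuclear RNAs and 2 as small nucleolar RNAs.

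The study profiled single muscle fibres from 8 male mice aged 6 to 8 weeks, all GFP-Myh7 heterozygous (G/+), in which slow fibres carry a green tag on their myosin. The fast pool held 4447 fibres without GFP from the extensor digitorum longus (EDL), a fast toe-extending muscle, and the slow pool 1659 fibres with GFP from the soleus, a postural calf muscle. The source label and the protocol name the soleus for the slow pool while its tissue label names the EDL, and muscle of origin and fibre type cannot be told apart here. Each pool gave 1 array, so no difference below has a replicate check or a test, the number of arrays limits the precision, and a size rule of 2-fold stands in for a call.

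Fast and slow fibres differ in their contractile isoforms, calcium handling and energy supply. Noncoding RNAs in such fibres range from the structural RNAs that build ribosomes and spliceosomes to long transcripts that act on chromatin, host microRNAs and small nucleolar RNAs, or are made from imprinted loci, where only the copy from 1 parent is active. Pseudogene transcripts resemble the gene they were copied from, so a probe can read both.

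Of 59305 spots, 30997 (52.3%) passed the scanner's background flag with fast fibre RNA and 30206 (50.9%) with slow fibre RNA, and none was saturated. The fixed markers bore out the fibre labels. All 10 slow fibre markers, among them Myh7, the type I myosin that guided the picking, were at least 2-fold higher in the slow pool with a median log2 difference of 6.90, and the 10 fast fibre markers measured on both arrays were all higher in the fast pool with a median of -5.64. Markers of other cells also differed. The fast pool was at least 2-fold higher in 9 of 10 endothelial markers, in all 8 fibroblast markers measured on both arrays, in all 4 erythrocyte markers and in 2 of 3 macrophage markers. On the log2 scale the summed level was 4.77 in the fast pool and 2.80 in the slow pool for endothelial markers, 7.29 and 5.27 for fibroblast markers, 6.54 and 5.12 for erythrocyte markers, and 3.98 and 2.04 for macrophage markers. Of the macrophage list, Adgre1 and Ptprc were well above background on neither array. Schwann cell markers were mixed, with 2 of 6 higher in the slow and 4 in the fast pool, and summed levels of 3.17 and 4.26 in the fast and slow pools. Of the satellite cell list, Vcam1 differed by -1.71 and Pax7 by 0.60. In the same list Myf5 and Calcr, and of the adipocyte list Adipoq, Plin1 and Cidec, were well above background on neither array, and the adipocyte marker that was, Fabp4, differed by -1.20. The part of these cells in any member's difference was not tested, and in such pools fewer cells of a type and less RNA per cell cannot be told apart.

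Several members host microRNAs, which are cut from the longer transcript and pair with messenger RNAs through their seed, bases 2 to 8. The array did not measure the mature microRNAs. They are shown because the hosts below differ between the pools in opposite directions, and the capitals mark the seed. The first of the sequences, from RefSeq, lies in the span of Meg3, the next 2 in that of Rian and the following 6 in that of Mirg. All 3 hosts were higher in the fast pool.
miR-770-5p: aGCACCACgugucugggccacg
miR-341-3p: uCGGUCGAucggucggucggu
miR-370-3p: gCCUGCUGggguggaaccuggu
miR-154-5p: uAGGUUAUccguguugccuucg
miR-377-3p: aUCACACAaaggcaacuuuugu
miR-541-5p: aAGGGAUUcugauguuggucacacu
miR-409-3p: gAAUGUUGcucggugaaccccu
miR-369-3p: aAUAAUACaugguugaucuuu
miR-410-3p: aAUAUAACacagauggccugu
The spans of these 3 transcripts hold 2, 3 and 10 microRNA genes with 3, 6 and 19 mature sequences in the table. Within Mirg only miR-453 and miR-496a-5p share a seed, GGUUGCC, and its 19 mature sequences have 18 seeds.

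The other sequences shown lie in Dleu2, higher in the slow pool, in Mir22hg, and in H19, whose level was nearly alike in both pools.
miR-15a-5p: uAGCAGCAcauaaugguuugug
miR-16-5p: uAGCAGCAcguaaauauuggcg
miR-22-3p: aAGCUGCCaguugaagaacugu
miR-675-5p: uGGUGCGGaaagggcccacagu
The miR-15a-5p and miR-16-5p sequences of Dleu2 share the seed AGCAGCA.

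Promoters are shown for Meg3, an imprinted member of the Dlk1-Dio3 locus, and for 4 of the members with the largest differences. They are RefSeq sequences of build GRCm38.p6, from 250 bases before to 50 after the start of the gene, 5′ to 3′ on the strand of the gene. Capitals mark matches on both strands to the E-box CANNTG, bound by MyoD-type factors, to CATTCC (MCAT, bound by TEAD factors), to AAGGTCA (a nuclear receptor site), to TATAAA (the TATA box), to TGACGTCA (the CRE, bound by CREB-type factors) and to the MEF2 motif, given by name because it needs further letters. Matches of different motifs may overlap.
Meg3 (chr12:109540746-109541045, plus strand): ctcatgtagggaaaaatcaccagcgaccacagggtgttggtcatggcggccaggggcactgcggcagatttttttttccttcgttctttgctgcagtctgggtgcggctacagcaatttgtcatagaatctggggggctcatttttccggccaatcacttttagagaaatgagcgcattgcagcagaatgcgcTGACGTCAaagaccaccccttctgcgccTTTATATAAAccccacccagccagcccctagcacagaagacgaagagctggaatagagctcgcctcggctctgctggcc
Gm3772 (chr13:70021709-70022008, plus strand): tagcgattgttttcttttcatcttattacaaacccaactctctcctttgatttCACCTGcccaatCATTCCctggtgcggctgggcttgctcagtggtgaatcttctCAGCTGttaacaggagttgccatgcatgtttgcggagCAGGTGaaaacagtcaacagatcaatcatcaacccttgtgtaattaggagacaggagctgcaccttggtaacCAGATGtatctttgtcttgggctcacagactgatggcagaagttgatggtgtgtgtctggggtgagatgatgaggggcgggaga
Hk1os (chr10:62339984-62340283, plus strand): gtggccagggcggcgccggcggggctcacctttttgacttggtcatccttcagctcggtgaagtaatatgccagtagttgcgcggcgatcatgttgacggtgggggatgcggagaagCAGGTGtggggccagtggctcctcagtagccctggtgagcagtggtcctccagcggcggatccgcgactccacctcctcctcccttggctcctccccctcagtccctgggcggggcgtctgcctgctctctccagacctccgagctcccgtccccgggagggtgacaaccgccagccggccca
1500012K07Rik (chr7:75308446-75308745, plus strand): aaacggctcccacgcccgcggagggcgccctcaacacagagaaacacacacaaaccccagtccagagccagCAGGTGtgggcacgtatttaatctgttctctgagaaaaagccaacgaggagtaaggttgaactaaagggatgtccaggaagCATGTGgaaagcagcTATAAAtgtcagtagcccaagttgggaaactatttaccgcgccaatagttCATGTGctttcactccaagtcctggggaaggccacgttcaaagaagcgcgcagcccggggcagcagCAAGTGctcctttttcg
Gm5532 (chr1:155527062-155527361, minus strand): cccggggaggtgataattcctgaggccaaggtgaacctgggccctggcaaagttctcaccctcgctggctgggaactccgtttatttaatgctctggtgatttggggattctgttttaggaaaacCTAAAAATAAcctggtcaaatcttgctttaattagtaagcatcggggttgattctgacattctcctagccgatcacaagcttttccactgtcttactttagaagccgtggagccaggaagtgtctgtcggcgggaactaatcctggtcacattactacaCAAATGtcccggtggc
The Meg3 window held 2 TATAAA matches, 1 CRE and no E-box. The Gm3772 window held 4 E-boxes and 1 MCAT, the Hk1os window 1 E-box, the 1500012K07Rik window 4 E-boxes and 1 TATAAA, and the Gm5532 window 1 E-box and 1 MEF2 motif. Promoter sequences were found for 109 members. An E-box was present in 67.0% of them and in 72.1% of all 27025 promoters in the table, the CRE in 8.26% and 1.88%, the MEF2 motif in 7.34% and 3.26%, MCAT in 16.5% and 14.6%, TATAAA in 14.7% and 14.2%, and AAGGTCA in 2.75% and 4.66%. Among promoters of members past 2-fold, an E-box was present in 10 of 11 higher in the slow pool and in 12 of 15 higher in the fast pool. The CRE was present in 2 of each. The median GC content was 57.3% for member promoters and 52.7% for all promoters. A match is a run of letters and no binding was measured.

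Levels below are on a log2 scale, as processed signals relative to the 75th percentile of the same array, and differences are slow minus fast on that scale, so a difference of 1 is 2-fold. Signals of different probes are not compared with each other, since brightness depends on the probe. Of the 200 members, 16 (8%) were at least 2-fold higher in the slow pool and 28 (14%) in the fast pool, against 9.52% and 11.9% of the 20993 accessions of every kind measured on both arrays and 10.9% and 12.5% of the 631 noncoding ones. Both shares of the members lie near these backgrounds, and the other 156 members (78%) differed by less than 2-fold. In either direction, 21.4% of all accessions and 23.5% of the noncoding ones passed 2-fold. The median difference was -0.03 with quartiles of -0.47 and 0.31, beside a median of 0.05 with quartiles of -0.44 and 0.46 over all accessions. Differences ran from -6.32 to 5.82, with 97 members above 0 and 103 below. Scaled on the spike-in controls, which adds 0.42 to every difference, 32 members were higher in the slow and 20 in the fast pool, and the slow share of calls went from 36.4% to 61.5%. Under all 9 scalings tried, 13 of the slow calls and 20 of the fast calls held. Among the transcripts named below, the calls of Gm6498, Sp3os, Map2k3os, NR_033578, Snhg20 and Peg13 did not hold under all of them. As a measure of scanner noise only, the software error of a member's difference had a median of 0.20, and 7 members whose probe was printed 8 to 10 times had an SD between spots of 0.02 to 0.08. Neither covers variation between pools.

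**Figure D1:**
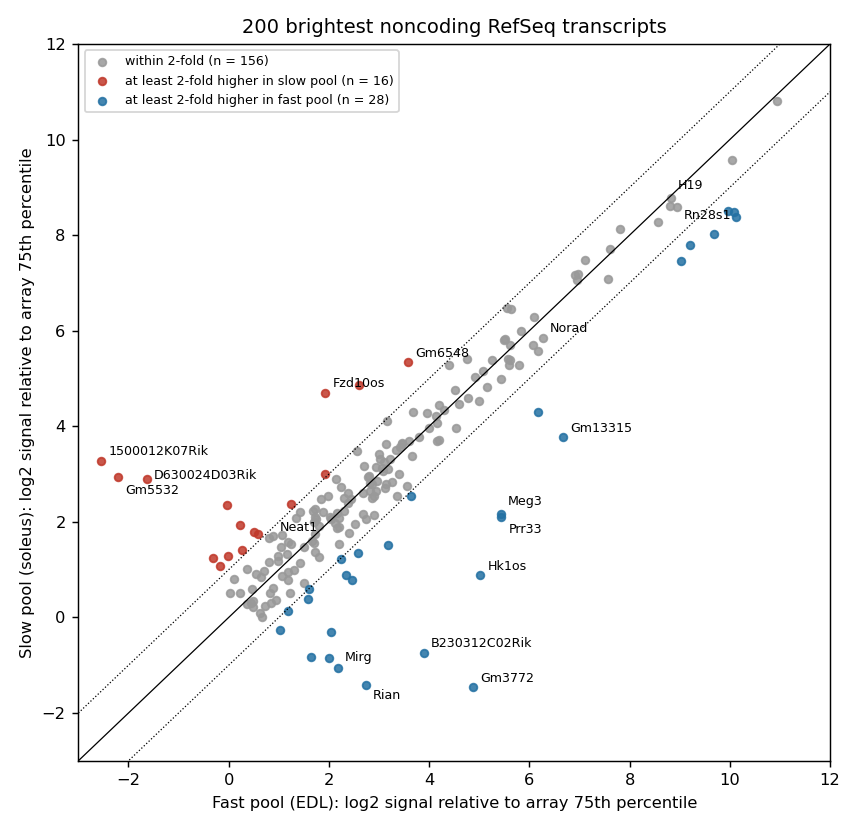
Log2 signal relative to the array's 75th percentile in the fast pool (horizontal) and the slow pool (vertical) for the 200 members, 1 point each, with 1 array per pool. The solid line marks equal levels and the dotted lines 2-fold; 156 members lie between the dotted lines, 16 above them and 28 below.

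Among the imprinted RNAs, those of 1 locus had the largest differences, all higher in the fast pool. Of the 7 members of this class, 4 were at least 2-fold higher in the fast pool and none in the slow. The background shares over all noncoding accessions were 12.5% and 10.9%. The 4 were Meg3, Rian and Mirg of that locus, and Peg13, whose call did not hold under the spike-in scaling. The class median was -1.20, which ran from -1.31 to -0.77 over the 9 scalings, and under the spike-in scaling 3 were past 2-fold. Meg3, Rian and Mirg are neighbouring maternally expressed RNAs of the Dlk1-Dio3 locus on chromosome 12. Meg3, which binds chromatin-modifying complexes, had a log2 level of 5.43 in the fast pool and 2.17 in the slow pool, 9.59-fold higher in fast fibres. Rian, which hosts small nucleolar RNAs, stood at 2.74 and -1.41, a 17.7-fold difference. Mirg, a host of many microRNAs, stood at 2.18 and -1.05, a 9.41-fold difference. All 3 were past 2-fold higher in the fast pool under all 9 scalings, over which the log2 differences ran from -3.37 to -2.84 for Meg3, -4.25 to -3.31 for Rian and -3.34 to -2.61 for Mirg. Of the other Meg3 probes, 2 differed by -3.43 and -2.92, while 1 more was well above background on neither array. From the same locus, Dlk1, a paternally expressed membrane protein, stood at 0.53 in the fast pool and -2.42 in the slow pool, a log2 difference of -2.95, and Rtl1 and Dio3 were well above background on neither array. Fibroblast and endothelial markers were also higher in the fast pool, with median differences of -1.86 and -1.55, and their part in the levels of Meg3, Rian and Mirg was not tested.

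H19, the maternally expressed RNA of the Igf2 locus, did not follow the Dlk1-Dio3 RNAs. It had a log2 level of 8.82 in the fast pool and 8.79 in the slow pool, a difference of -0.04. Nctc1, which lies in the H19 and Igf2 domain, differed by -0.77 and Igf2 itself, a growth factor, by -0.78, at 0.98 and 0.20. Peg13, a paternally expressed RNA, was 2.29-fold higher in fast fibres, at 1.57 and 0.38. Kcnq1ot1, the antisense RNA that silences its imprinted cluster, differed by 0.21 by its brightest probe, but by -1.74, -0.82 and -0.07 by its other probes, so the probes disagree. Airn, outside the 200 with 2 accessions, differed by -0.64 and -0.08.

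**Figure D2:**
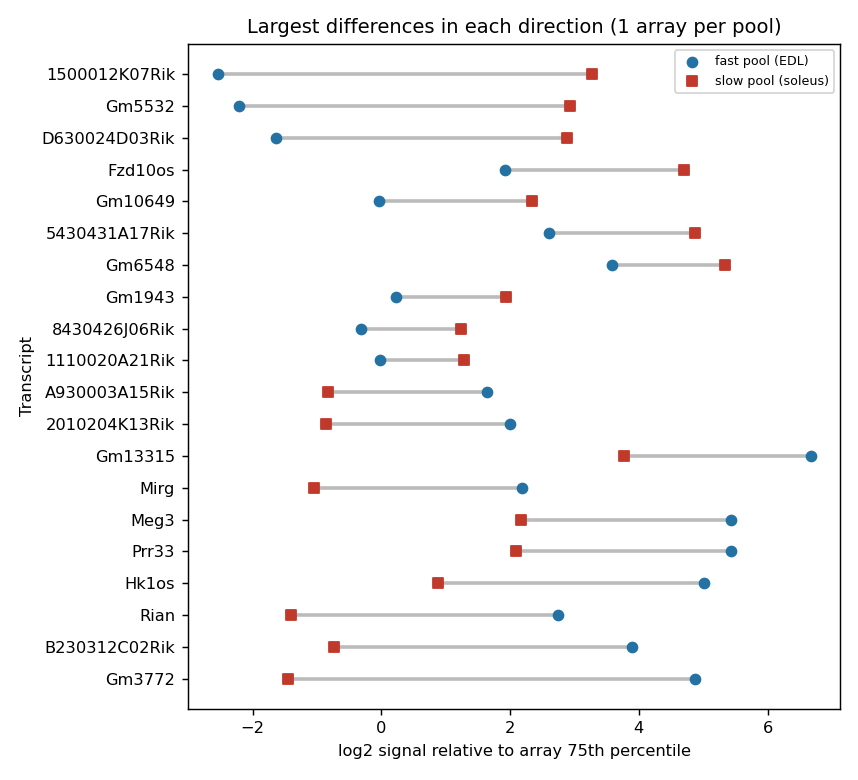
Log2 signal relative to the array's 75th percentile in the fast pool (circles) and the slow pool (squares) for the 10 members with the largest difference in each direction, joined by a grey line, with 1 array per pool. The longest lines belong to Gm3772, from 4.87 to -1.45, and 1500012K07Rik, from -2.54 to 3.28.

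The largest differences belonged to long noncoding RNAs known by clone names, whose functions are not given by the table. The class of RNAs outside the other lists, which also holds Rn28s1 and Rn4.5s, had 84 members. Of these, 9 (10.7%) were at least 2-fold higher in the slow pool and 11 (13.1%) in the fast pool. These shares lie near the 10.9% and 12.5% of all noncoding accessions. The class median of -0.21 ran from -0.32 to 0.22 over the 9 scalings and so has no settled sign. Among those higher in slow fibres, 1500012K07Rik (NR_045812) had a log2 level of -2.54 in the fast pool and 3.28 in the slow pool, a 56.6-fold difference. Gm5532 (NR_132128) stood at -2.21 and 2.93, a 35.3-fold difference. D630024D03Rik stood at -1.63 and 2.89, a 23.0-fold difference. These 3 were dim in the fast pool and clearly lit in the slow one, and over the 9 scalings their log2 differences ran from 4.40 to 6.25, 3.90 to 5.56 and 3.57 to 4.95. The low ends came from the normexp background correction and the high ends from the spike-in scaling. A second accession of D630024D03Rik was well above background in the slow pool only, at least 31.9-fold higher there, whereas the second probe of 1500012K07Rik was well above background on neither array.

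The genes beside these transcripts varied. 1500012K07Rik overlaps Sv2b, a synaptic vesicle protein on the opposite strand, which was well above background in the slow pool only, with log2 levels of -5.20 in the fast and 0.35 in the slow, and Slco3a1, an organic anion transporter next to it, had a log2 level of 1.38 in the fast pool and 3.57 in the slow pool, a difference of 2.19. Beside Gm5532, the phosphate exporter Xpr1 ran the other way with a difference of -1.90 and Acbd6 differed by 0.01. Bod1 and Cpeb4, beside D630024D03Rik, differed by 0.20 and -0.16. Further members higher in slow fibres were Gm10649, at -0.04 and 2.34 and overlapping the mineralocorticoid receptor gene Nr3c2 (0.80), and 5430431A17Rik, at 2.60 and 4.87. Their folds were 5.21 and 4.82. 8430426J06Rik and 1110020A21Rik followed with log2 differences of 1.55 and 1.30.

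In the fast pool Gm3772 (NR_131156) had the largest difference of the set, with a log2 level of 4.87 against -1.45 in the slow pool, 79.9-fold. Over the 9 scalings its log2 difference ran from -6.43 to -5.46. Its second probe was well above background on neither array, and its neighbour Ice1, a subunit of the little elongation complex, differed by 0.57. B230312C02Rik stood at 3.90 and -0.74, a 24.9-fold difference that ran from -4.75 to -3.95 on the log2 scale over the scalings, beside Gata5 (-0.28) and the transporter gene Slco4a1 (1.32). For these 2 transcripts the measured neighbours thus did not show the difference of the RNA. Prr33 did lie among fast fibre genes. It stood at 5.44 in the fast pool and 2.10 in the slow pool, 10.1-fold higher in fast fibres, in a span that overlaps Tnnt3, the fast troponin T, whose level was 10.86 against 4.43, and Lsp1, a leukocyte actin-binding protein, which differed by -3.48. Tnni2, the fast troponin I just before it, stood at 10.70 and 5.85, and Mrpl23, a mitochondrial ribosomal protein just after it, differed by -0.26. 2010204K13Rik and A930003A15Rik had folds of 7.22 and 5.52 in the same direction, and the second probe of 2010204K13Rik was well above background on neither array. 2310040G24Rik and Gm16062 differed by -1.87 and -1.67.

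Over all members with a place in the table, 1 of 7 measured genes overlapping a slow-higher member was itself at least 2-fold higher in the slow pool and none in the fast pool, and 2 of 10 overlapping a fast-higher member were higher in the fast pool and none in the slow. Those 2, Tnnt3 and Lsp1, both overlap the same member, Prr33. Of genes overlapping members within 2-fold, 1 of 46 was higher in the slow and 3 in the fast pool. Of 22 flanking genes beside slow-higher members, 2 were higher in the slow and 1 in the fast pool. Of 36 beside fast-higher members, 1 was higher in the slow and 6 in the fast pool, and of 189 beside members within 2-fold, 19 and 20. The counts are small and describe these arrays only.

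Transcripts named for the opposite strand of a coding gene held 10 members. Of these, 2 were at least 2-fold higher in the slow pool and 3 in the fast pool. The median of 0.05 ran from -0.06 to 0.48 over the scalings. Over all noncoding accessions the shares past 2-fold were 10.9% and 12.5%. Of the 26 measured accessions of this kind outside the set, 4 were higher in the slow pool and 4 in the fast pool, with a median of 0.01. Counts over 10 members thus do not set the class apart. Fzd10os stood at 1.93 in the fast pool and 4.70 in the slow pool, 6.85-fold higher in slow fibres, and Fzd10, a Wnt receptor, differed alike with 2.56. Map2k3os (-1.23) and the stress kinase kinase gene Map2k3 (-1.15) were both higher in the fast pool. Hk1os differed far more than its partner: it stood at 5.02 and 0.88, 17.6-fold higher in fast fibres, while Hk1, a hexokinase that starts glucose use, was at 1.02 and 0.68, a difference of -0.33. Uckl1os differed by -2.33, and by -1.18 with another probe, while Uckl1, a uridine-cytidine kinase relative, differed by 0.39. Sp3os was higher in slow fibres by 1.08 (2.12-fold), and Sp3, a transcription factor, differed by 0.23. Members of 3 further pairs lay within 2-fold with opposite signs: Atcayos 0.50 beside Atcay -0.06, Lppos 0.18 beside Lpp -0.71, and Fbxl12os -0.08 beside Fbxl12 0.79. Fam120aos differed by 0.70 beside 0.01 for Fam120a, while Hoxa11os and Hoxa11 both had lower values in slow fibres, Hoxa11os by a difference of -0.55 and Hoxa11 at 0.97 against -0.03.

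**Figure D3:**
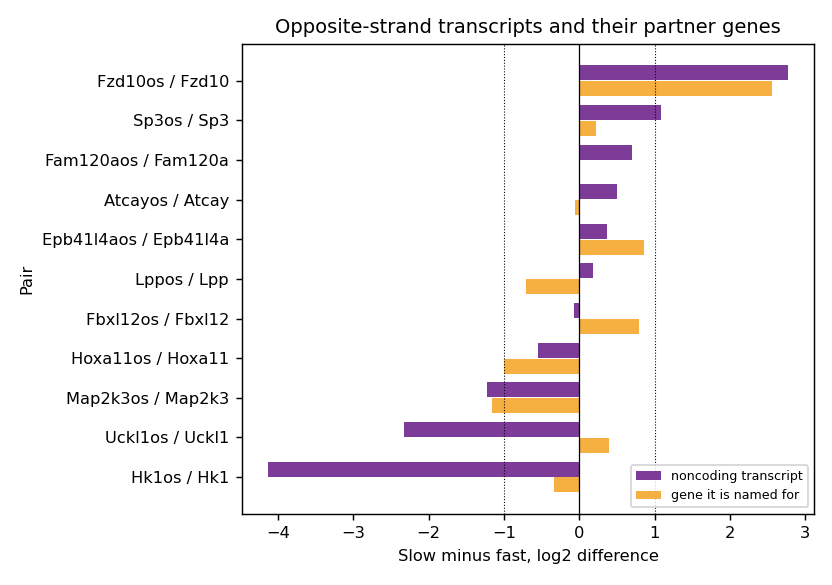
Log2 difference, slow minus fast, of opposite-strand transcripts (purple) and of the genes they are named for (orange), with dotted lines at 2-fold and 1 array per pool. Fzd10os and Fzd10 reach 2.78 and 2.56 together, whereas Hk1os reaches -4.14 beside -0.33 for Hk1. Epb41l4aos, drawn here too, counts among the small nucleolar RNA host genes in the text.

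Pseudogene transcripts made up 46 members, with a median of 0.05 that ran from -0.06 to 0.48 over the scalings. At least 2-fold higher were 2 (4.35%) in the slow pool and 9 (19.6%) in the fast pool. Over all noncoding accessions the shares were 10.9% and 12.5%. Among the 12 brightest members were 7 pseudogenes, of which 6 were past 2-fold higher in the fast pool. This group was cut by brightness after its values were seen and does not stand for the class. Gm8709 was at 10.09 in the fast pool and 8.48 in the slow pool, 3000002C10Rik at 10.12 and 8.38, and Gm6981 at 9.69 and 8.03. The differences of Gm8709, 3000002C10Rik, Gm6981, Gm12070, Gm6498 and Gm5069 ran from -1.74 to -1.42. Other probes of Gm8709 (-1.77), of Gm6981 (-1.62 and -1.67) and of Gm5069 (-1.52 and -1.73) gave close values. The table does not name the genes from which they were copied, and their probes may read those genes too. The other of the 7, Gm5523, was within 2-fold at -0.48. Gm13315 had the largest pseudogene difference, at 6.67 and 3.77, 7.45-fold higher in fast fibres. H2-K2, a pseudogene beside the class I histocompatibility gene H2-K1, differed by -1.67 and H2-K1 by -2.15. Macrophage and endothelial markers were also higher in the fast pool, and their part in these differences was not tested.

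The pseudogenes at least 2-fold higher in slow fibres were Gm6548 and Gm1943. Gm6548 was printed 10 times and stood at 3.58 in the fast pool and 5.34 in the slow pool, a difference of 1.76 with an SD between spots of 0.07, which is the noise of the printed spots alone. Gm1943 stood at 0.23 and 1.93, a difference of 1.70. The other 35 pseudogenes were within 2-fold, among them Gm9731 at 0.48 and the repeatedly printed Gm8580, Gm8624, Gm10653, Gm11517, Gm5766 and Gm6525 with differences from 0.10 to 0.37. Where the symbol holds the name of a gene, the pseudogene and that gene mostly stayed within 2-fold of each other: Hmgb1-rs17 differed by -0.10 beside -0.51 for Hmgb1, Selenok-ps1 by -0.46 beside -0.39, and Pisd-ps1 and Pisd-ps3 by 0.55 and 0.19 beside 0.97 for Pisd.

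**Figure D4:**
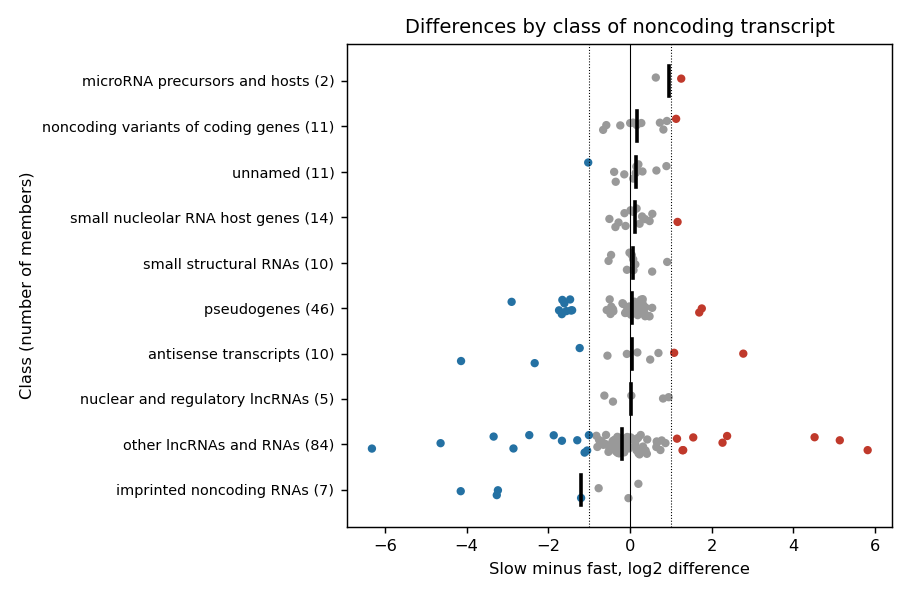
Log2 difference, slow minus fast, of each member by class, with the class size in brackets, the class median as a black bar and dotted lines at 2-fold; red points are at least 2-fold higher in the slow pool and blue in the fast pool. The imprinted RNAs have a median of -1.20, and the structural RNAs lie within 2-fold in the reported scaling.

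The structural and housekeeping RNAs among the members lay within 2-fold between the pools. None of the 10 small structural RNAs passed 2-fold, with a median of 0.06. Rnu3b1, a U3 RNA of ribosomal RNA processing, reached 0.91 and passes 2-fold under the spike-in scaling. Of all accessions, 78.6% lay within 2-fold, so a count over 10 members does not set the class apart. The list has 14 measured accessions outside the set, with a median of -0.23. Of these, Scarna13 was past 2-fold higher in the fast pool at -1.62, and none was in the slow pool. The U1 spliceosomal RNAs Rnu1a1 and Rnu1b6 differed by 0.09 and 0.13. Rn7sk, which holds back the elongation factor P-TEFb, differed by -0.07, Rn7s1, a signal recognition particle RNA, by -0.46, and Rmrp, the RNA of RNase MRP, by -0.52. Rnu12, of the minor spliceosome, differed by 0.54, and Snora73a, a small nucleolar RNA, by -0.01. Rn28s1, the RNA of the large ribosomal subunit, stood at 8.94 and 8.59, and Rn4.5s at 8.81 and 8.61, differences of -0.35 and -0.20. How far the labelling reads RNAs without a poly(A) tail is not given in the sources used here.

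Small nucleolar RNA host genes, whose introns hold RNAs that guide ribosomal RNA modification, gave 14 members with a median of 0.12. None was at least 2-fold higher in the fast pool and 1 (7.14%) was in the slow pool. The shares of all noncoding accessions were 12.5% and 10.9%, so counts over 14 members do not set the class apart. Snhg20 was the only host past 2-fold, at 0.59 in the fast pool and 1.75 in the slow pool, a difference of 1.17 that falls under 2-fold under at least 1 other scaling. Snhg8, the brightest of them, stood at 4.52 and 4.76, and the others ran from -0.50 for Snhg5 to 0.55 for Snhg16. Zfas1 differed by -0.11, Snhg1 by -0.13, Snhg12 by -0.28 and Snhg15 by -0.36.

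None of the 5 nuclear and regulatory RNAs passed 2-fold, with a median of 0.03. Norad, which binds PUMILIO proteins, stood at 6.26 in the fast pool and 5.85 in the slow pool, a difference of -0.42, and 3 other probes gave -0.53, -0.71 and -0.51. Neat1, the scaffold of paraspeckles, stood at 0.88 and 1.69, a difference of 0.81, with 0.92 by another probe. All values of Norad were below 0 and those of Neat1 above 0 in the reported scaling, and over the 9 scalings Norad's brightest probe ran from -0.57 to 0.01 and has no settled sign. Chaserr, which lowers the expression of the chromatin remodeller Chd2 in mouse cells, was at 3.16 and 4.11, a difference of 0.95. Chd2 was at 1.74 and 1.04, a difference of -0.69. Both lay within 2-fold in the reported scaling, and a link between them in these fibres was not tested. Lncpint, a p53 target, differed by -0.63, and by -0.90 with another probe. Oip5os1 (Cyrano) differed by 0.03. Under the spike-in scaling 2 of the 5 pass 2-fold.

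Of the microRNA hosts, Dleu2, whose microRNAs hold back the cell cycle, stood at -0.17 in the fast pool and 1.08 in the slow pool, a difference of 1.26, and Trim13, a ubiquitin ligase that overlaps it, at 0.65 and 2.32, a difference of 1.67. Mir22hg, the host of the muscle-enriched miR-22, stood at 3.67 and 4.31, a difference of 0.63. Both had higher values in slow fibres and 1 of 2 was past 2-fold there, as were 10.9% of all noncoding accessions. The 2 members give no direction for the class. The 4 measured hosts outside the 200 had a median of -0.73. Of these, Mir1a-1hg, a host of the muscle microRNA miR-1a, stood at -0.48 in the fast pool and -2.19 in the slow pool. Mirc35hg differed by -0.68, Mir100hg by -0.79 and Mir99ahg by 0.71.

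Noncoding variants of coding genes gave 11 members with a median of 0.17, of which Bcor, a corepressor, was higher in the slow pool at 1.13, beside 0.42 for its coding transcript. Smpx, a small cytoskeletal protein of striated muscle, stood at 5.63 and 6.45, a difference of 0.82, and its coding transcript differed by 0.99. Etfb, the electron transfer flavoprotein subunit of fatty acid oxidation, stood at 5.56 and 6.47, a difference of 0.91, beside 0.87. For these muscle and mitochondrial genes the variants differed as their coding transcripts did, and a probe may read both. The splicing factors Hnrnpa1 and Sfpq differed by 0.17 and 0.01, and Nfe2l2, the antioxidant regulator Nrf2, by -0.24. Snrnp70, a U1 protein, differed by 0.73 beside 0.19 for its coding transcript, and Taf1d by -0.58 beside -0.24.

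The 11 members without a gene in the table had a median of 0.14. NR_003278, the brightest member of all, stood at 10.94 in the fast pool and 10.80 in the slow pool, a difference of -0.14. NR_033578 was just past 2-fold higher in the fast pool at -1.02, and NR_027875 and NR_027905 reached 0.89 and 0.65. NR_015528 and NR_033601 differed by 0.31 and 0.21, and NR_015476 and NR_033217 by -0.39 and -0.35. Bvht (Braveheart), a cardiac lineage RNA in the class of RNAs outside the other lists, differed by 0.41.

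How far the fixed lists reach the set follows from the choice by brightness and is no result. The 200 hold 14 of the 16 small nucleolar RNA host accessions measured on both arrays, 10 of 24 structural, 7 of 10 imprinted, 5 of 11 nuclear, 2 of 6 microRNA host and 10 of 36 opposite-strand accessions. Beside these, 200 of all 631 noncoding accessions measured on both arrays are members. Of the list of muscle long noncoding RNAs, 2 accessions were on the array and none was well above background on both arrays. Other probes gave a second reading for part of the set. For 34 member genes, 52 other probes were well above background on both arrays, of which 40 lay within 0.5 of the reported log2 difference and 6 more than 1 away, with a median gap of 0.26. Those 6 were 2 probes of Kcnq1ot1 and 1 each of Ube2d-ps (-1.62), 5830417I10Rik (-0.86), B230354K17Rik (-0.22) and Uckl1os (-1.18).

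Brightness and calls were also set side by side. The 50 brightest members held 1 slow-higher and 8 fast-higher transcripts, ranks 51 to 100 held 2 and 4, ranks 101 to 150 held 2 and 7, and ranks 151 to 200 held 11 and 9. Slow-higher members thus lay mostly in the last of these groups, and no test of this was possible. The groups rest on the mean signal that chose the members. Counts over all accessions of like brightness were not made, so the split describes the choice and is no result about the members. The 431 noncoding accessions below rank 200 held 53 slow-higher and 51 fast-higher ones, with a median of 0.01.

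**Figure D5:**
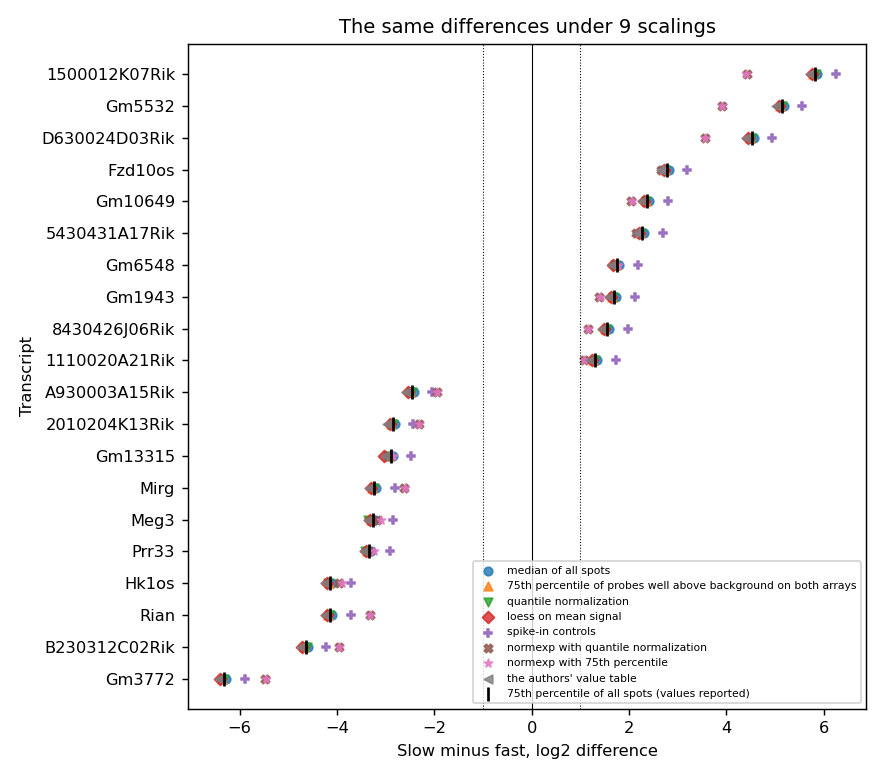
Log2 difference, slow minus fast, of the 10 members with the largest difference in each direction under 9 scalings, with dotted lines at 2-fold and the reported value as a black bar. All 20 keep their side of 2-fold, and the normexp background corrections bring the differences of dim transcripts such as 1500012K07Rik nearest to 0, down to 4.40.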

How the data were processed

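RNA from each pool, 0.1 µg, was labelled with Cy3 and hybridised to 1 one-colour Agilent array, per the labels. The deposited scanner files hold spot intensity values that were background-subtracted and detrended by the scanner software, per the file headers (Agilent Feature Extraction 12.0.3.1 in the submitters' processing notes), with no normalization between arrays, and 0 or 1 flags for spots. The authors' deposited value table holds the same intensity times 2.83 (fast) and 2.45 (slow), with column medians of 30.1 and 27.1; the values are linear and not centred, and what the factors scale to is not given in the sources used here. Both arrays lay on 1 slide and 1 scan.

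Control spots and 159 outlier-flagged spots were left out, which left 56596 probes. Each array's 75th percentile of log2 signal (7.51 and 7.61) was subtracted. Spots of a probe were averaged and the brightest probe of each accession was kept. Names came from a RefSeq table (GRCm38.p6) by accession without version; no coordinates of it were set against the array's build (mm9). Values were computed with Python 3.11.15, numpy 2.4.6 and pandas 2.3.3, and normexp and loess with limma 3.58.1 in R 4.3.3, after a test on simulated data. With no replicates, no test was made. Named are the 10 brightest members, the 10 largest differences per direction, up to 4 per class and direction with its brightest, and the 3 on each side of the edge; any other was chosen after its values were seen. Normexp used median spot signals. Members and lists were chosen with earlier results of these data known. Alternatives changed the scaling, the background correction, the dim filter, the outlier filter, the size rule and the number of members. Results of 1 gene are left out and not reported here.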

Additional observations from a re-analysis of the deposited data

How the results depend on the processing

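No difference past 2-fold changed its sign under the alternatives run. Of 34 named members past 2-fold, 28 kept their call under all 9 scalings and 6 did not (Gm6498, Sp3os, Map2k3os, NR_033578, Snhg20 and Peg13); the cause was not tested. Scaling on the spike-in controls gave 32 members higher in the slow pool and 20 in the fast pool, with a median of 0.39; it moves the median of all accessions by 0.42, and the authors' table moves it by -0.11. With a size rule of 1.5-fold 32 members were higher in the slow and 39 in the fast pool, and with 3-fold 8 and 17. The 100 brightest members held 3 and 12, and the 300 brightest 24 and 39. Normexp gave 13 and 24 with quantile normalization. Keeping outlier-flagged spots left all 200 members in place, as did dropping the dim filter. No paired analysis was possible because each group has 1 array, and no replicate could be left out. Assigning classes only from symbols that are the same in array file and gene table was not run, since the array files hold no symbols. Signals near background in the dimmer pool limit the largest differences: normexp moved those of Gm3772, B230312C02Rik, Rian, Mirg, 1500012K07Rik, Gm5532 and D630024D03Rik by over 1.5 times.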

Other observations

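Further noncoding transcripts were well above background in 1 pool only and so lie outside the 200. Of the 2412 noncoding accessions on the array, 110 were of this kind in the fast pool. Of these, 33 were at least 2-fold higher than the bound set by the other array. In the slow pool there were 94, of which 48 were. Such counts over accessions of every kind were not made, so these describe the arrays and no trait of noncoding RNAs. For the bound, the dim level was raised to the lowest flagged signal of its array where it lay below that. 2310065F04Rik, listed with the synonym linc-Myh and known in mouse as an RNA of the fast myosin gene cluster, had a log2 level of 5.88 in the fast pool and was at least 1311-fold higher there. E330012B07Rik and Hmga2-ps1 were at least 50.3-fold and 37.9-fold higher in fast fibres. In the slow pool Mhrt, an antisense RNA of the cardiac myosin locus that holds Myh7, had a log2 level of 0.17 and was at least 28.4-fold higher. Gm38407 was at least 24.9-fold higher there. As among the 200, there is no replicate check of these values.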
